A study of Mus musculus with 8 samples.

Results

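The SOX genes other than Sox2 were followed by RNA-seq through the first days of reprogramming of mouse embryonic fibroblasts (MEFs). The 10 genes were taken from the table by their symbols, Sox4, Sox5, Sox6, Sox7, Sox9, Sox11, Sox12, Sox15, Sox17 and Sox21, out of 18990 genes in all. Of these, 9 had a mean of at least 1 CPM (reads on the gene scaled to a fixed library total) and were tested with limma among the 13866 genes that did, and Sox17 was below that level and is described by its reads. Among the 9 tested, Sox15 and Sox7 changed most. Sox15 went from 5 reads in each siNcor1 library at day 3 to 54 and 61 reads at day 6. Its mean reached 1 CPM only through these siNcor1 libraries of day 6. At day 6 it was 3.29-fold lower where the libraries are labelled siOct4. From day 3 to day 6 Sox6 fell in both siRNA groups. Sox7 rose in both, less firmly. Its rise in siOct4 was 1.72, and 0.69 without the day 3 library that held 3 reads. In siNcor1 the rise of Sox7 was no longer called without any 1 of the 4 siNcor1 libraries. Sox9 fell in the libraries labelled siOct4, and its change there differed from that in siNcor1 by the test of the difference itself.

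The cells were primary wild-type MEFs of strain C57/BL6 (BL6 in the labels), reprogrammed at passage 2. All 4 groups carried the same lentiviruses, a doxycycline-inducible tet-STEMCCA cassette with Oct4, Sox2, Klf4 and c-Myc (OSKM) together with rtTA, and were grown in medium with doxycycline at 2 ug/mL, chiron at 3 uM, the TGFb inhibitor Alk5i at 0.25 uM, ascorbic acid at 50 ug/mL and LIF. The groups differed in the siRNA pool, given at 40 nM against Ncor1 (siNcor1) or against Oct4 (siOct4), and in the day of reprogramming on which RNA was taken, day 3 or day 6, with 2 biological replicates in each. Ncor1 encodes a subunit of a corepressor complex, and Oct4 (gene symbol Pou5f1) is a pluripotency factor that the cassette itself expresses. There was no untargeted group among the libraries analysed here, so all differences given compare the 2 siRNA pools or the 2 days.

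SOX proteins bind DNA through an HMG box related to that of SRY and bend it, mostly together with a partner factor. Members with similar HMG boxes form groups: SOX4, SOX11 and SOX12 are group C activators of neural and mesenchymal progenitors, SOX5 and SOX6 are group D proteins without a transactivation domain, SOX9 is a group E activator of cartilage and gonad genes, SOX7 and SOX17 are group F factors of endothelium and endoderm, SOX15 is the group G protein of mouse stem cells and muscle precursors, and SOX21 is a group B2 repressor and a counterpart of SOX2. SOX17 and SOX15 are known for binding with OCT4 at sites that differ from, or overlap with, those of SOX2.

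The targeted transcripts were read first, as a check of the labels. Ncor1 had a log2-cpm of 7.08 and 7.20 in siNcor1 and of 7.82 and 7.94 in siOct4 at day 3. The difference was 0.74 (limma, SE 0.12, adjusted p = 0.0139). At day 6 Ncor1 had 7.26 and 7.28 in siNcor1 and 7.33 and 7.13 in siOct4, and differed by only -0.04 (limma, SE 0.12, adjusted p = 0.815). Between the days it changed by 0.14 in siNcor1 (limma adjusted p = 0.399) and by -0.65 in siOct4 (adjusted p = 0.0007475). Pou5f1 was not lower in siOct4 at day 3 (log2 fold change -0.08, SE 0.16, limma adjusted p = 0.941) and was higher by 1.78 at day 6 (SE 0.16, adjusted p = 0.000109), and the table does not separate cassette transcripts from endogenous ones. Measured against siNcor1, Pou5f1 thus showed no called decrease at day 3 or day 6, and at day 6 neither targeted transcript was lower under its own pool. The paper describes limited knockdown of this pluripotency factor in these samples. From separate time-course experiments it reports an early silencing with rapid recovery, which it attributes to strong expression from the cassette. That early silencing was not tested here, since no library was taken before day 3. These 4 libraries are called the libraries labelled siOct4, with siOct4 standing below for the label alone. Reads on genes were between 7735742 and 16445192 per library, with the fewest in siOct4 day 3 replicate 2, where 3 reads were worth 0.380 CPM. Fibroblast markers were present in all libraries: the 10 listed, Col1a1 to Fap, summed to 6266 to 6397 CPM in siNcor1 and 8800 to 10350 in siOct4 at day 3, and to 4540 to 4915 and 2496 to 2674 at day 6. The 9 epithelial markers, Cdh1 to Ocln, summed to 59.2 to 61.9 and 17.4 to 20.3 CPM at day 3 and to 682 to 728 and 303 to 332 at day 6, and no marker of these lists was at 0 in both libraries of a group.

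Between genes, levels were compared as CPM per kb of exon (GENCODE M21 annotation), since a longer transcript collects more reads. The group C genes were the most abundant members at both days. In siNcor1 at day 3, Sox11 had 11.1 CPM per kb, Sox4 10.5 and Sox12 10.2, and the ranges of their libraries overlapped. Sox21 followed with 3.55 and Sox9 with 1.92, and Sox6, Sox5, Sox7 and Sox15 lay between 0.759 and 0.348. At day 6 in siNcor1, Sox4 stood alone at 18.1 CPM per kb, and Sox15 had moved from the last of the members with reads to the fourth, at 5.57, above Sox21 at 2.32. In the libraries labelled siOct4 at day 6 Sox15 was at 1.64 CPM per kb and below Sox21, which had 3.65. Sox2, which the cassette also encodes, was above every member in each group, between 97.1 and 308 CPM per kb.

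**Figure D1:**
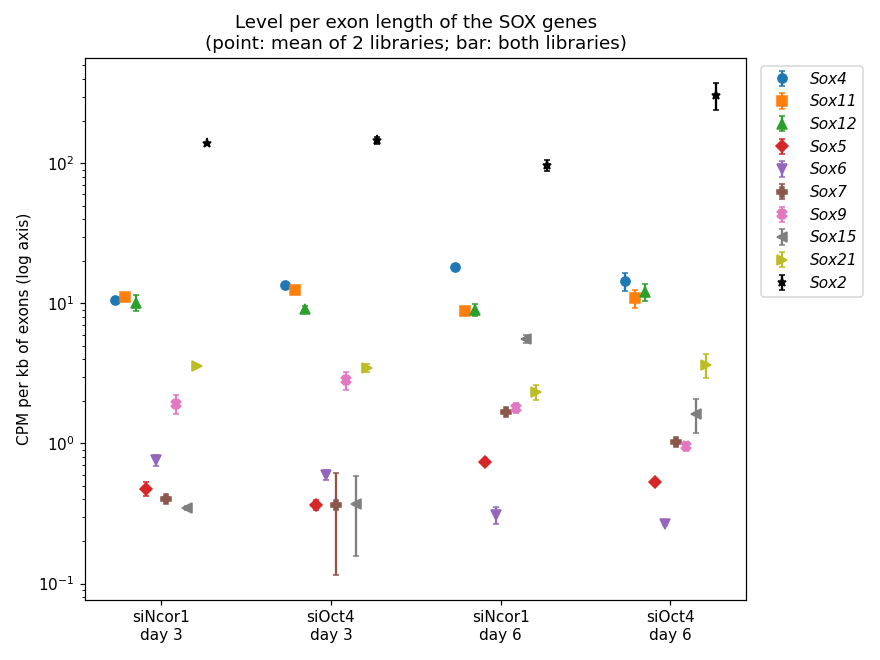
Mean level of 9 members and of Sox2 in CPM per kb of exon (log axis) in the 4 groups, each point the mean of 2 libraries and each bar the span of both. Sox4, Sox11 and Sox12 sit between 8.84 and 18.1 in all groups, and Sox15 climbs from under 0.4 at day 3 to 5.57 in siNcor1 and 1.64 in siOct4 at day 6. Sox17, with 0 reads at day 3, is not drawn.

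Within genes, values are given as log2-cpm, the deposited unit, with replicate 1 before replicate 2. Among the 9 members tested, the span of the 4 group means was 3.56 for Sox15, which is larger than in 98.8% of all tested genes, 2.42 for Sox7 (96.2%) and 1.52 for Sox9 (87.4%), and it was smallest for Sox12 at 0.41 (20.3%). Only siNcor1 at day 6 carried Sox15 past the level filter, so a wide span came with its admission and its rank is no test. The Sox7 span uses the siOct4 mean of day 3, from libraries with 30 and 3 reads. Differences between the siRNA groups and between the days share libraries, so they are not independent of each other. In bulk samples, fewer cells with a transcript and less transcript per cell cannot be told apart.

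**Figure D2:**
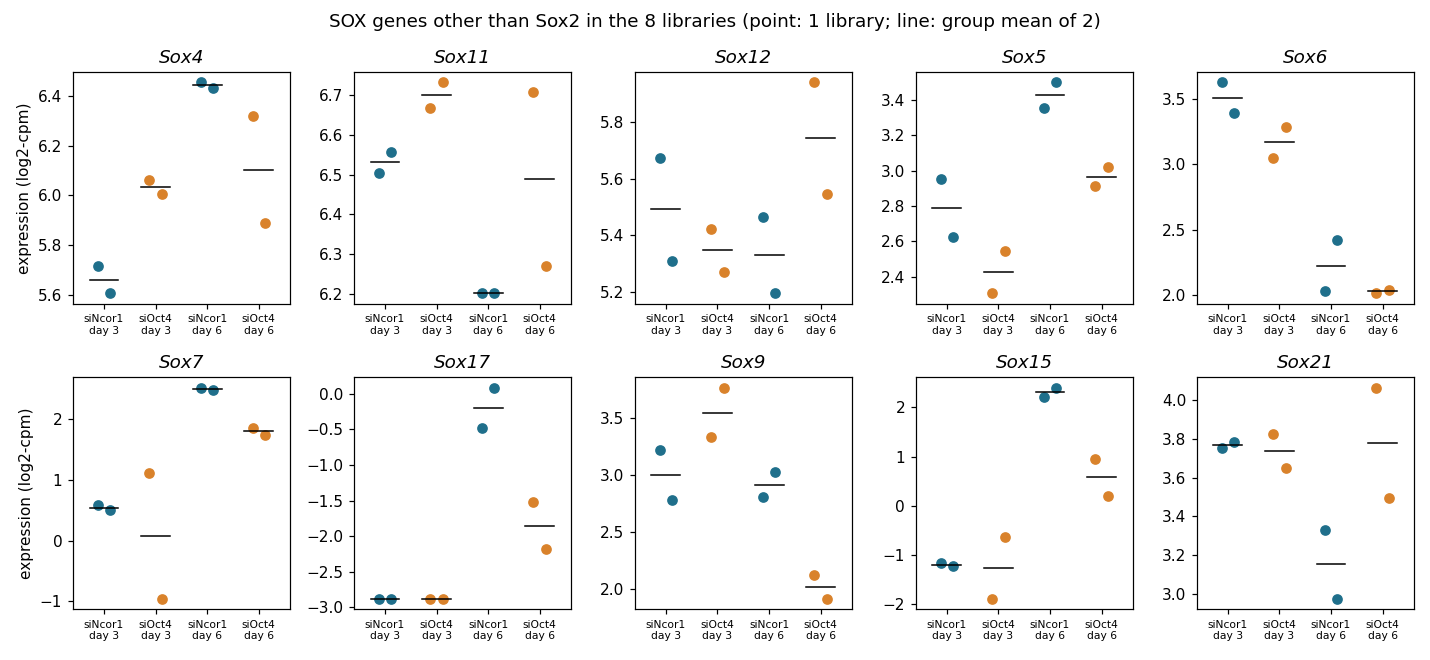
Log2-cpm of the 10 members in the 8 libraries, 1 panel per gene with its own vertical scale. Points are libraries, replicate 1 left of replicate 2, in blue for siNcor1 and orange for siOct4, and lines are means of 2. The lowest value in the Sox17 panel stands for 0 reads. In the Sox15 panel the 2 siNcor1 libraries of day 6 lie above all others, and in the Sox9 panel the 2 siOct4 libraries of day 6 lie below all others.

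Sox15 (ENSMUSG00000041287) lies on chromosome 11 at 69655314 to 69656727 on the plus strand (GRCm38, mm10). In siNcor1 it had a log2-cpm of -1.17 and -1.23 at day 3, from 5 and 5 reads, and of 2.20 and 2.40 at day 6, from 54 and 61 reads. In the siOct4-labelled libraries it had -1.88 and -0.64 at day 3, from 2 and 4 reads, and 0.95 and 0.21 at day 6, from 17 and 12 reads. All day 6 libraries were above all day 3 libraries, and at day 6 the siRNA groups did not overlap. Sox15 rose by 3.50 on the log2 scale in siNcor1 (SE 0.47, limma adjusted p = 0.000289) and by 1.84 in siOct4 (SE 0.47, adjusted p = 0.00622). Sox15 passed the level filter only through its siNcor1 libraries of day 6, which had a mean of 4.79 CPM. Means were 1.41 CPM in siOct4 at day 6, and 0.300 CPM in siNcor1 and 0.321 CPM in siOct4 at day 3. Its tests are thus on a gene admitted by the group in which it was highest. With no filter the limma adjusted p of these rises was 0.000384 and 0.00756. At day 6 Sox15 was lower in siOct4 by -1.72 (SE 0.47, limma adjusted p = 0.0176, and 0.02215 with no filter). At day 3 the siRNA groups differed by -0.06 (95% interval -1.09 to 0.97). The difference between the 2 rises, -1.66 (SE 0.67), missed the threshold with an adjusted p of 0.0982 in limma. It passed with a pseudocount of 1 (-1.29, adjusted p = 0.0199), with quantile normalization (-2.19, 0.0261) and without siOct4 day 3 replicate 1 (-2.28, 0.0303).

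Because few reads lie behind the day 3 levels and a constant was added before the logarithm, the deposited scale understates these folds. From summed reads, Sox15 was 16.0 times higher at day 6 than at day 3 in siNcor1 (95% exact interval 8.39 to 34.3), 5.16 times higher in siOct4 (2.10 to 15.2), and at day 6 it was 3.51 times higher in siNcor1 than in siOct4 (2.32 to 5.47). These intervals cover counting error only. The day 6 difference between the siRNA groups was no longer called without siNcor1 day 6 replicate 1 (-1.82, limma adjusted p = 0.0681), siNcor1 day 6 replicate 2 (-1.62, adjusted p = 0.127) or siOct4 day 6 replicate 2 (-1.35, adjusted p = 0.0782). The rise in siOct4 was 1.22 (limma adjusted p = 0.0535) without siOct4 day 3 replicate 1 and 1.07 (adjusted p = 0.0622) with quantile normalization. Mpdu1, on the opposite strand, shares 31 exonic bases with the end of Sox15, and whether reads were counted by strand is not given in the sources used here. Mpdu1 had 142 to 369 reads per library and its limma adjusted p was 0.299 or above in all 5 comparisons.

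The tested genes whose pattern over the 8 libraries lay nearest to Sox15 were Rab11fip4, with a root mean square difference of 0.35 log2 units after centring each gene, and Cgn, with 0.39. The window of 250 bases before the RefSeq start of Sox15 is shown since this member changed most, at chr11:69654787-69655036 on the plus strand (RefSeq, GRCm38.p6). The windows of Sox21, the only member called in the opposite direction at day 6 (chr14:118237031-118237280, minus strand), and of Sox12, with the smallest span of group means (chr2:152398047-152398296, minus strand), are set beside it. Sox12 and Sox11 were also higher in siOct4 at day 6, by 0.41 and 0.29, and were not called. They are written 5′ to 3′, with matches to the motifs searched in capitals.
Sox15: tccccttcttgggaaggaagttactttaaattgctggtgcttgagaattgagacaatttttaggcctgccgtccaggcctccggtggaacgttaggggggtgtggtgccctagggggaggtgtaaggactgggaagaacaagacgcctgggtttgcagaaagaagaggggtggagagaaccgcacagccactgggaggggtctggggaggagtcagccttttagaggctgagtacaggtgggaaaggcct
Sox21: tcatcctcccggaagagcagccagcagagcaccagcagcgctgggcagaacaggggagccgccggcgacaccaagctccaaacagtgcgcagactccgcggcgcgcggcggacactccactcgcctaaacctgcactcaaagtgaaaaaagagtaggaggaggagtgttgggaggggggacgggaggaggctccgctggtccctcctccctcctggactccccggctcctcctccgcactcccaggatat
Sox12: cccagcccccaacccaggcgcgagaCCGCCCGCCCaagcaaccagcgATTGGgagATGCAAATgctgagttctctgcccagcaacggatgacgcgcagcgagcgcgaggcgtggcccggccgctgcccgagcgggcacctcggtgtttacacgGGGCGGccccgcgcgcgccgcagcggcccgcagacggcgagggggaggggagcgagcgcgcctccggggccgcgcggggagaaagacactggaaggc

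The letters searched on both strands were ACAATG and ACAAAG (SOX-like), ATGCAAAT (the octamer bound by POU factors), CACGTG (E-box), GGGCGG (GC box), CCAAT and TATAAA. The windows of Sox15 and Sox21 held none of them, which says only that these letters are not in these 250 bases. The Sox12 window held the octamer 195 bases before the start, next to CCAAT on the other strand 203 bases before it, and GGGCGG 3 times, of which a run of 10 capitals holds 2 overlapping matches. Of 32851 mouse promoter windows of this length, 1.6% held the octamer, 33.8% CCAAT and 32.7% GGGCGG, while ACAATG was held by 10.7%, ACAAAG by 16.5%, TATAAA by 12.4% and CACGTG by 6.02%. Windows were found for 7 of the 10 members, and the octamer was in that of Sox12 alone. The share of G and C was 55.6% for Sox15, 65.2% for Sox21 and 74.4% for Sox12, against a median of 52.4% over all windows. The RefSeq start of Sox15 lies upstream of the GENCODE start given above.

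Sox7 (ENSMUSG00000063060, chromosome 14, 63943673 to 63950732, plus strand) and Sox17 (ENSMUSG00000025902, chromosome 1, 4490931 to 4497354, minus strand) are the group F members. Sox7 had a log2-cpm of 0.58 and 0.50 in siNcor1 at day 3 and of 2.52 and 2.49 at day 6. In the libraries labelled siOct4 it had 1.12 and -0.95 at day 3, from 30 and 3 reads, and 1.86 and 1.75 at day 6. The 2 siOct4 libraries of day 3 thus stood far apart, and every day 6 library was above every day 3 library.

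Sox7 rose by 1.96 in siNcor1 (SE 0.50, limma adjusted p = 0.0107) and by 1.72 in siOct4 (SE 0.50, adjusted p = 0.0129). The second rise rests on the low library: without siOct4 day 3 replicate 2 it was 0.69 (limma adjusted p = 0.109), and without siOct4 day 3 replicate 1 it was 2.76. The rise in siNcor1 kept its size, between 1.92 and 2.01, when each library was left out, but its limma adjusted p was between 0.0502 and 0.0787 without any 1 of the 4 siNcor1 libraries. At day 6 Sox7 was lower in siOct4 by -0.70 without overlap of the libraries, and this was not called (95% interval -1.80 to 0.40, limma adjusted p = 0.316). Its nearest genes by pattern were Stra6, at a root mean square difference of 0.28 log2 units, and Il16, at 0.32.

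Sox17 had 0 reads in all 4 libraries of day 3, which allows up to 0.0898 CPM over the siNcor1 pair and 0.132 CPM over the siOct4 pair when 3 reads are taken as the floor of a group. At day 6 it had 7 and 11 reads in siNcor1 and 2 and 1 reads in siOct4. Set against that floor, Sox17 was 8.35-fold higher at day 6 than at day 3 in siNcor1, and in siOct4 it stayed at the floor. This fold leaves out the counting error of the day 6 reads and is not a lower bound. At day 6 the summed reads in siNcor1 were 5.31 times those in siOct4 relative to library size (95% exact interval 1.55 to 28.1, counting error only). With no filter on low values, limma gave an adjusted p of 0.0374 for this difference and 0.00289 for the day change in siNcor1. The same fit gave 0.125 for the day change in siOct4 and 0.15 for the change of the difference between the days. All 4 day 3 libraries held the same lowest value and added no spread to this fit. These adjusted p values rest on the spread of the day 6 libraries and of other genes, so no conclusion is drawn from them. Gm37587, on the opposite strand, shares 804 exonic bases with Sox17 and is not used here.

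Genes of the 2 settings in which group F factors are known moved in both directions. Of 15 endoderm genes listed, 10 were in the table and 7 were tested. From day 3 to day 6, 1 rose and 2 fell in siNcor1, and 2 rose and 3 fell in siOct4, where limma called 34.8% and 52.7% of all tested genes, with a median log2 change of -0.60 and -0.36 against -0.07 and -0.08 over all tested genes. Amn, a subunit of the cubilin receptor, rose by 1.49 and 3.67, whereas Gata6, an endoderm factor, fell, with log2 changes of -0.97 and -1.24. Cubn, the gene of cubilin itself, fell in siOct4 with a change of -2.19 (SE 0.44, limma adjusted p = 0.00131), opposite to Amn, and Dab2 fell there with -1.08. Of 13 endothelial genes, 9 were in the table and 3 were tested: the receptors Tek and Flt1 fell in both siRNA groups, with log2 changes of -1.22 and -1.31 and of -1.05 and -2.58, and Egfl7 rose by 0.89 and 1.13. At day 6, 1 endoderm gene, Amn, was higher (2.13) and 1, Dab2, lower (-0.71) in siOct4, where 30.7% of all tested genes were called, and no endothelial gene was called by limma, with 1 of 3 at an unadjusted p under 0.05.

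Sox9 (ENSMUSG00000000567, chromosome 11, 112782224 to 112787760, plus strand) is the only group E gene among the members. Its log2-cpm was 3.22 and 2.78 in siNcor1 and 3.33 and 3.76 in siOct4 at day 3. At day 6 it was 2.81 and 3.02 in siNcor1 and 2.13 and 1.92 in the libraries labelled siOct4. The siOct4 libraries were above those of siNcor1 at day 3 and below them at day 6, with no overlap at either day.

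From day 3 to day 6, Sox9 fell by 1.52 on the log2 scale in siOct4 (SE 0.23, limma adjusted p = 0.000199), while in siNcor1 the change was -0.08 (95% interval -0.58 to 0.42). The difference between the siRNA groups changed by -1.44 between the days (SE 0.32, limma adjusted p = 0.0107). At day 6 Sox9 was lower in siOct4 by -0.89 (SE 0.23, limma adjusted p = 0.0131), and at day 3 the difference was 0.55 (SE 0.23, adjusted p = 0.405). The day 6 difference was -0.78 (limma adjusted p = 0.112) without siNcor1 day 6 replicate 2. The change between the days was -1.22 (adjusted p = 0.0686) without siNcor1 day 3 replicate 2, -1.22 (0.0566) without siOct4 day 3 replicate 2, and -1.33 (0.0545) without siNcor1 day 6 replicate 2. Myo10 and Ehbp1l1 were nearest to Sox9 by pattern, with root mean square differences of 0.091 and 0.10 log2 units.

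Sox5 (ENSMUSG00000041540, chromosome 6, 143828425 to 144781977, minus strand) and Sox6 (ENSMUSG00000051910, chromosome 7, 115470872 to 116038796, minus strand) act with SOX9 in cartilage, and they moved in opposite directions here. Sox5 had a log2-cpm of 2.95 and 2.62 in siNcor1 and 2.31 and 2.54 in siOct4 at day 3, and of 3.35 and 3.50 and 2.91 and 3.02 at day 6. Sox6 had 3.62 and 3.39 in siNcor1 and 3.05 and 3.29 in siOct4 at day 3, and 2.04 and 2.42 and 2.02 and 2.04 at day 6. Sox6 was lower in every day 6 library than in every day 3 library, and Sox5 was higher at day 6 within each siRNA group.

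Sox6 fell by 1.28 on the log2 scale in siNcor1 (SE 0.21, limma adjusted p = 0.00106) and by 1.14 in siOct4 (SE 0.21, adjusted p = 0.000900). Sox5 rose by 0.64 in siNcor1 (SE 0.20, limma adjusted p = 0.0284) and by 0.54 in siOct4 (SE 0.20, adjusted p = 0.0394). The rise of Sox5 in siNcor1 was no longer called by limma without siNcor1 day 3 replicate 2 (0.47, adjusted p = 0.207), siNcor1 day 6 replicate 1 (0.71, 0.0863) or replicate 2 (0.56, 0.157), or with quantile normalization (0.51, 0.0661). In siOct4 its rise was lost in 6 of 8 fits without a library, all but those without a day 3 library of siNcor1 (0.42 to 0.66, adjusted p 0.0531 to 0.195), and under 4 other settings (0.39 to 0.54, adjusted p 0.0522 to 0.120). Neither gene was called between the siRNA groups: at day 6 the difference was -0.46 for Sox5 (95% interval -0.90 to -0.02, limma adjusted p = 0.104) and -0.20 for Sox6 (-0.66 to 0.27, adjusted p = 0.513). Sox5os1, an antisense gene that shares 1330 exonic bases with Sox5, is not used here.

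The cartilage genes that SOX9, SOX5 and SOX6 are known to activate were listed as 15 genes, of which 11 were in the table and 7 were tested. From day 3 to day 6, 2 rose and 2 fell in siNcor1, and 3 rose and 3 fell in the libraries labelled siOct4, against 34.8% and 52.7% of all tested genes called. Col2a1, the main cartilage collagen, fell, with log2 changes of -2.12 and -3.40, and Col11a2, a minor fibrillar collagen, rose by 0.88 and 1.59. In siNcor1 Hapln1, a link protein of cartilage matrix, rose by 2.07 and Acan, the cartilage proteoglycan, fell with a change of -1.29, and in siOct4 Col11a1 and Comp fell with changes of -2.52 and -1.74. At day 6, Acan was higher in siOct4 by 2.27 (SE 0.28, limma adjusted p = 0.000416) and Col11a1 was lower by -1.16 (SE 0.19, adjusted p = 0.00161), while 5 of 7 were not called, against 30.7% of all tested genes called. The median difference of the 7 at day 6 was -0.37, against -0.03 over all tested genes.

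Sox4 (ENSMUSG00000076431, chromosome 13, 28948919 to 28953713, minus strand), Sox11 (ENSMUSG00000063632, chromosome 12, 27334264 to 27342574, minus strand) and Sox12 (ENSMUSG00000051817, chromosome 2, 152393611 to 152398063, minus strand) are genes with 1 exon each. Sox4 had a log2-cpm of 5.72 and 5.61 in siNcor1 and 6.06 and 6.01 in siOct4 at day 3. At day 6 it had 6.45 and 6.43 in siNcor1 and 6.32 and 5.89 in the libraries labelled siOct4. The order of the siRNA groups was thus the opposite at the 2 days, with no overlap at either.

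Sox4 rose by 0.78 in siNcor1 (SE 0.14, limma adjusted p = 0.00175), and in siOct4 its change was 0.07 (95% interval -0.24 to 0.38). The difference between the siRNA groups was 0.37 at day 3 (SE 0.14, limma adjusted p = 0.325) and -0.34 at day 6 (SE 0.14, adjusted p = 0.0917), neither of them called, and the change between the days was called at -0.71 (SE 0.20, adjusted p = 0.0288). That call held only without siOct4 day 6 replicate 1 or replicate 2 among the 8 fits that left out a library: in the other 6 the change was between -0.66 and -0.77, with a limma adjusted p of 0.0558 to 0.122. It was also lost with no trend of the variance on the mean (adjusted p = 0.0818) and with quantile normalization (-0.64, adjusted p = 0.0540). The day 6 difference was called by limma without siOct4 day 6 replicate 1 (-0.55, adjusted p = 0.00715) and with totals without normalization factors (-0.43, adjusted p = 0.0359). Gm26735, on the opposite strand, shares 2616 exonic bases with Sox4 and is not used here.

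Sox11 had a log2-cpm of 6.51 and 6.56 in siNcor1 and 6.67 and 6.73 in siOct4 at day 3, and of 6.20 and 6.20 and 6.71 and 6.27 at day 6. Sox12 had 5.67 and 5.31 and 5.42 and 5.27 at day 3, and 5.46 and 5.19 and 5.94 and 5.55 at day 6, in the same order of groups. For both genes the 2 siOct4 libraries of day 6 were above the siNcor1 libraries and lay further apart than these.

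Neither Sox11 nor Sox12 was called in any of the 5 comparisons as reported, and both were under some alternatives. At day 6 Sox11 differed by 0.29 (95% interval -0.02 to 0.60, limma adjusted p = 0.144) and Sox12 by 0.41 (0.04 to 0.79, adjusted p = 0.0882). Sox11 changed by -0.33 from day 3 to day 6 in siNcor1 (limma adjusted p = 0.0904), a change that was called when only the groups compared were fitted (adjusted p = 0.0211) and without siOct4 day 6 replicate 1 (0.0167) or replicate 2 (0.0164). In siOct4 its change was -0.21 and was called at -0.43 (limma adjusted p = 0.0103) without siOct4 day 6 replicate 1, and Sox12 changed by 0.40 in siOct4 (adjusted p = 0.0707). Without siOct4 day 6 replicate 2, both were called at day 6, Sox11 at 0.51 (limma adjusted p = 0.00709) and Sox12 at 0.61 (adjusted p = 0.0176). Under 3 other scalings and voom the change of Sox12 in siOct4 was 0.46 to 0.58 and was called (adjusted p 0.0176 to 0.0466).

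Sox21 (ENSMUSG00000061517, chromosome 14, 118233232 to 118237030, minus strand) had a log2-cpm of 3.75 and 3.78 in siNcor1 and 3.82 and 3.65 in siOct4 at day 3. At day 6 it had 3.33 and 2.98 in siNcor1 and 4.06 and 3.49 in the libraries labelled siOct4. The day 6 libraries of siNcor1 were the lowest of all 8.

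Sox21 fell by 0.62 on the log2 scale in siNcor1 (SE 0.21, limma adjusted p = 0.0396) and in siOct4 its change was 0.04 (95% interval -0.42 to 0.50). At day 6 it was higher in siOct4 by 0.63 (SE 0.21, limma adjusted p = 0.0417), the only member called in that direction. The change of the difference between the days, 0.66 (SE 0.30), was not called (adjusted p = 0.136). The day 6 call held only without siOct4 day 6 replicate 2 among the 8 fits that left out a library, and in the other 7 the difference was 0.34 to 0.80 with a limma adjusted p of 0.0509 to 0.281. It was also lost under 5 other settings, with differences of 0.54 to 0.63 and an adjusted p of 0.0553 to 0.0991. The fall in siNcor1 was likewise lost in 6 of these 8 fits, with changes of -0.44 to -0.79 and an adjusted p of up to 0.245, and held only without a day 6 library of siOct4, and under 5 other settings it was -0.54 to -0.62 with an adjusted p of 0.0505 to 0.0701. Gm4675, a lincRNA on the opposite strand, shares 713 exonic bases with Sox21. It had 7 and 16 reads in siOct4 at day 6 and 0 to 6 in the other libraries, against 92 to 235 reads on Sox21, and its part in the Sox21 values was not tested.

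Neural progenitor and neuron genes, the setting in which SOX21 and the group C factors are best known, were listed as 12 genes, of which 8 were tested. At day 6, 5 were higher and 1 lower in siOct4, against 12.1% and 18.6% of all tested genes, with a median log2 difference of 0.87 against -0.03 over all tested genes. Tubb3, a neuronal tubulin, was higher by 1.71, Elavl3, an RNA-binding protein of neurons, by 1.75, Neurog2, a proneural factor, by 1.60 and Elavl4 by 1.07. At day 3, 3 were higher, with Tubb3 at 0.82, the adhesion molecule Ncam1 at 0.80 and Stmn2 at 0.72, against 0.375% of all tested genes. The median of the 8 was nevertheless -0.22, against -0.02 over all tested genes. From day 3 to day 6, 1 rose and 4 fell in siNcor1, and 4 rose and 2 fell in siOct4, against 34.8% and 52.7% of all tested genes called. Ncam1 fell, with log2 changes of -1.36 in siNcor1 and -2.45 in siOct4. In siOct4 Elavl3 rose by 3.72 and Neurog2 by 3.19, and Nes fell with -0.66. In siNcor1 Elavl4 and Map2 fell with changes of -1.07 and -0.74, and Stmn2 rose by 0.94.

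**Figure D3:**
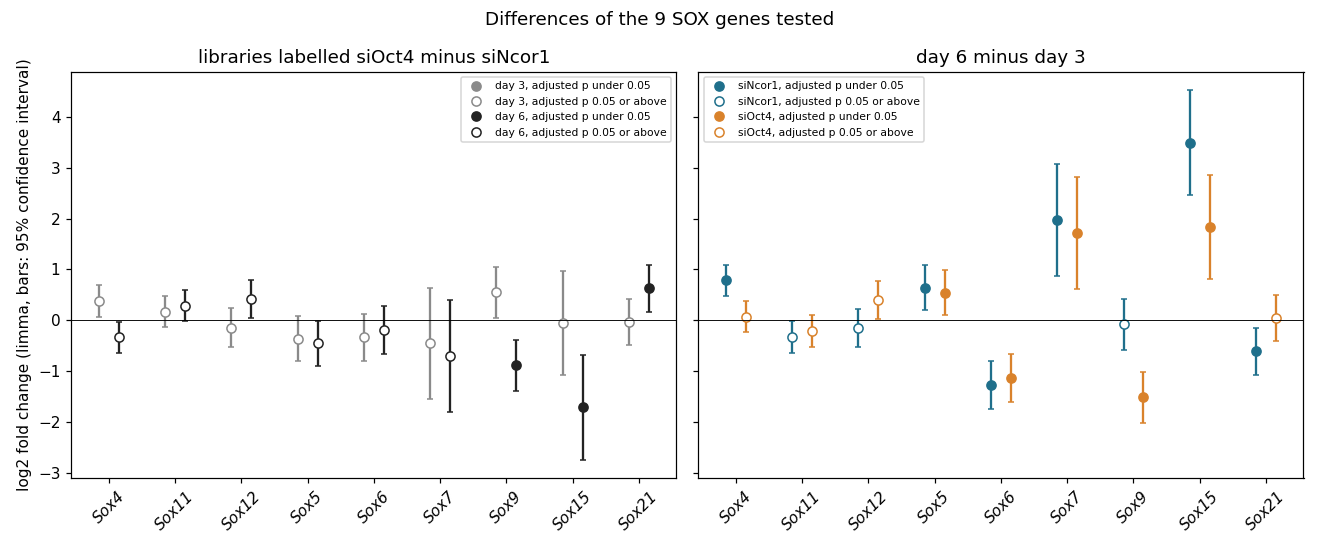
Log2 fold changes of the 9 tested members with 95% confidence intervals from limma, at left siOct4 minus siNcor1 at day 3 (grey) and day 6 (black), at right day 6 minus day 3 in siNcor1 (blue) and siOct4 (orange). Filled points have an adjusted p under 0.05. At left 3 black points are filled, Sox9 at -0.89, Sox15 at -1.72 and Sox21 at 0.63, and no grey one, and at right Sox15 in siNcor1 is highest at 3.50.

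Counted over the members, none of the 9 was called between the siRNA groups at day 3, where limma called 1.07% of all tested genes, and Sox4 and Sox9 had an unadjusted p under 0.05. At day 6, 3 of 9 were called, 2 lower and 1 higher in siOct4, against 30.7% of all tested genes (18.6% lower and 12.1% higher). From day 3 to day 6, 6 of 9 were called in siNcor1, 4 of them higher, against 34.8% (13.8% higher and 20.9% lower), and 5 of 9 in siOct4, 3 of them higher, against 52.7% (22.2% higher and 30.5% lower). For the change of the difference between the siRNA groups, 2 of 9 were called, both negative, against 20.7% (12.9% negative and 7.77% positive). The libraries of the 2 groups did not overlap for 5 of 9 members at day 3 and 8 of 9 at day 6, where 43.4% and 64.7% of all tested genes did not. They did not overlap between the days for 7 of 9 in siNcor1 and 6 of 9 in siOct4, against 73.1% and 74.8%. Sox15 passed the level filter only through its siNcor1 libraries of day 6, so these counts describe the members and carry no test of them as a group. The shares of all genes depend on single libraries: with 1 left out they ran from 0.0216% to 2.70% at day 3, from 10.1% to 33.7% at day 6 and from 7.28% to 26.4% for the change of the difference.

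Marker lists moved between the groups as well. All 9 epithelial markers rose from day 3 to day 6 in both siRNA groups, with a median of 3.21 in siNcor1 and 3.57 in siOct4. Of all tested genes, limma called 13.8% higher between the days in siNcor1 and 22.2% in siOct4. At day 6, 6 of 9 were lower in siOct4, against 18.6% of all tested genes, among them Krt18 by -3.08 and Cldn4 by -3.08. Of 10 fibroblast markers, 5 rose and 2 fell from day 3 to day 6 in siNcor1 (median 0.52). There Lum changed by 2.70, Dcn by 2.51 and Col1a1 by -1.15. In siOct4 2 rose and 5 fell (median -0.53), with Lum at 1.85 and Col1a1 at -2.88. Of all tested genes, 20.9% were called lower between the days in siNcor1 and 30.5% in siOct4. At day 6, 7 of the 10 fibroblast markers were lower in siOct4, against 18.6% of all tested genes, Pdgfra by -1.14 and Col1a1 by -1.01. Sox15 and Sox9 were also lower in siOct4 at day 6. At day 3, 6 of 9 epithelial markers were already lower in siOct4 (median -1.58) and none higher, against 0.692% of all tested genes called lower. No fibroblast marker was called at day 3 (median 0.36). Sox15 differed at day 3 by -0.06 and Sox9 by 0.55, neither of them called by limma. The part of these markers in the SOX values was not tested. Of 8 leukocyte markers 6 were in the table, summing to 11.4 to 25.4 CPM. At day 6 none of the 4 tested was called between the siRNA groups by limma, against 30.7% of all tested genes. None of them had an unadjusted p under 0.05 either.

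Of the 10 other SOX genes listed, 5 were in the table, and Sox30 was below the level tested. Sox8, a group E gene like Sox9, was higher in siOct4 at day 6 by 1.28 (SE 0.33, limma adjusted p = 0.0127), whereas Sox9 was lower. It rose by 1.04 in siNcor1 and by 2.68 in siOct4, from means of 1.23 and 0.942 CPM at day 3 to 2.74 and 6.70 at day 6. Sox13, a group D gene like Sox5 and Sox6, rose by 0.79 and 0.78, the direction of Sox5. Sox10, the third group E gene, fell by 1.37 on the log2 scale in siOct4 (SE 0.49, limma adjusted p = 0.0346), at 4 to 22 reads per library. Sox2 fell by 0.54 in siNcor1 and rose by 1.05 in siOct4, and at day 6 it was higher in siOct4 by 1.63 (SE 0.19, limma adjusted p = 0.000328).

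Partner factors and relatives of the SOX proteins were read from 2 further lists. Of 13 partner genes, 12 were in the table and 9 were tested. At day 6, 2 were higher in siOct4, Pou5f1 and Pou2f1 (by 0.51), and 2 lower, Prrx1 (by -0.86) and Gli3 (by -0.54). Of all tested genes, limma called 12.1% higher and 18.6% lower there. From day 3 to day 6, 2 rose and 3 fell in siNcor1, and 3 rose and 2 fell in siOct4, against 34.8% and 52.7% of all tested genes called. Nanog, a pluripotency factor, rose by 5.07 in siNcor1 and by 5.98 in siOct4, and Sall4 by 2.37 and 3.46. Pou2f1 and Gli3 fell in siNcor1, with changes of -0.83 and -0.51, and Prrx1 fell in siOct4 with -1.43. At day 3 only Nanog was called, lower in siOct4 by -2.025 (limma adjusted p = 0.0491), against 1.07% of all tested genes. Among the 4 TCF/LEF genes, whose proteins also carry an HMG box, and their cofactor Ctnnb1, Lef1 was higher in siOct4 at day 6 by 0.88 and Tcf7l2 and Ctnnb1 were lower by -0.53 and -0.65. Tcf7 rose by 1.24 in siNcor1 and by 0.76 in siOct4.

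**Figure D4:**
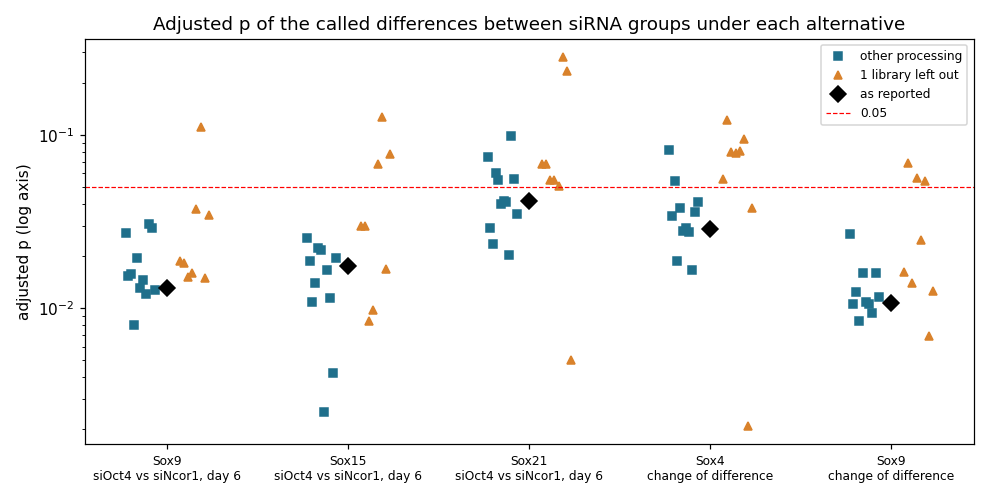
Adjusted p (log axis) of the 5 called results that compare the siRNA groups, as reported (black), under each other way of processing (blue) and with 1 library left out (orange), with a dashed line at 0.05. The change of the difference is that between day 3 and day 6. All blue points for Sox9 and Sox15 lie under the line, and 7 of 8 orange points for Sox21 lie above it.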

How the data were processed

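RNA was depleted of ribosomal RNA and sequenced as paired ends. Per the labels, alignment was to mm10 with STAR 2.5.2b, and the authors deposited log2-cpm values computed with edgeR 3.20.9, and the counting tool is not given in the sources used here. Subtracting the constant behind the lowest deposited log2 value, -2.87, left whole multiples of what 1 read is worth (100% of values to within 0.1 read), and so reads and CPM. The deposited log2 values were tested with limma 3.58.1 in R 4.3.3 (lmFit, then eBayes with trend=TRUE), in 1 model of all 4 groups, on 13866 genes averaging 1 CPM or more, with Benjamini-Hochberg adjustment over them at 0.05. The 5 comparisons set siOct4 against siNcor1 at day 3 and at day 6, day 6 against day 3 for either pool, and the interaction of pool and day. Replicate counts varied beyond Poisson error (chi-square divided by its degrees of freedom, 9.38 to 22.0, highest in siOct4 at day 6), so no 2 libraries were treated as copies of 1.

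Coordinates and exonic lengths are from GENCODE M21 (GRCm38), which matched 18969 of 18990 genes, and promoter windows are from RefSeq. All 10 members are named with their values, the other SOX genes and the 2 targeted genes too, from each further list members among the up to 4 with the largest called change in a comparison, and for the 3 members with the widest span the 2 nearest genes. The members and gene lists were chosen with earlier results of these data known. Lists are described by counts and medians and were not tested as sets. The precision of each mean rests on 2 libraries. The alternatives were 10 planned settings of scaling, filter, pseudocount and model, leaving out each library, and 2 settings added after seeing the data, voom with TMM factors and library totals without Gm26917, a gene model with 15.5% to 29.1% of reads.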

Additional observations from a re-analysis of the deposited data

Results flagged for a closer look

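For 4 SOX genes the difference between the siRNA groups itself differed between day 3 and day 6, tested as an interaction in limma over the 8 libraries. They were 2 of the 9 members tested and 2 of the 4 other SOX genes tested, against 20.7% of all tested genes called. The change of the difference, siOct4 minus siNcor1, was -0.71 on the log2 scale for Sox4 (SE 0.20, limma adjusted p = 0.0288) and -1.44 for Sox9 (SE 0.32, adjusted p = 0.0107). With 1 library left out it ran from -0.93 to -0.50 for Sox4 and from -1.655 to -1.22 for Sox9, and neither call held in all of these fits. With no trend of the variance Sox4 was not called (limma adjusted p = 0.0818). The change of the difference was 1.58 for Sox2 (SE 0.26, limma adjusted p = 0.00229), which the cassette also expresses, and 1.64 for Sox8 (SE 0.46, adjusted p = 0.0283). Between the days Sox4 rose by 0.78 in siNcor1 and changed by 0.07 in siOct4, whereas Sox9 changed by -0.08 in siNcor1 and by -1.52 in siOct4.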

How the results depend on the processing

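The 5 counts of called members kept within 1.5 times of their value under the other alternatives run, with these exceptions. With a mean of at least 10 CPM only 4 members were tested, and 1 was called at day 6, 2 between the days in siNcor1, 0 in siOct4 and 1 for the change of the difference. With no trend of the variance, 1 was called for that change. With each library left out, the counts were 0 to 0 at day 3, 0 to 4 at day 6, 3 to 7 between the days in siNcor1, 3 to 5 in siOct4 and 0 to 4 for the change. Directions that flipped belonged to differences that were not called: Sox15 at day 3 was 0.47 with quantile normalization and 0.00904 with a pseudocount of 1, and the siOct4 day change was 0.0409 for Sox11 with quantile normalization and -0.0171 for Sox21 with totals without normalization factors. With a library left out, signs flipped at day 3 for Sox7 (-1.50 to 0.58), Sox12 (-0.33 to 0.0379), Sox15 (-0.68 to 0.56) and Sox21 (-0.12 to 0.0546). They flipped between the days in siNcor1 for Sox9 (-0.30 to 0.13) and Sox12 (-0.34 to 0.0208), and in siOct4 for Sox4 (-0.14 to 0.28), Sox11 (-0.43 to 0.0083) and Sox21 (-0.24 to 0.33). For the change of the difference they flipped for Sox5 (-0.26 to 0.0689), Sox6 (-0.0498 to 0.33), Sox7 (-1.28 to 0.79) and Sox11 (-0.10 to 0.34). The cause was not tested.

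The replicate numbers are shared by the groups, and same-numbered libraries deviated together only weakly (correlations -0.04 to 0.28). More genes were called in each comparison when a replicate block was fitted. There were 222 at day 3 (148 as reported) and 4698 at day 6 (4251). Between the days there were 5218 in siNcor1 (4819) and 7570 in siOct4 (7312), and 3395 for the change of the difference (2867). Whether same-numbered libraries share a batch was not tested. With a replicate block, 0 members were called at day 3, 4 at day 6, 6 between the days in siNcor1, 6 in siOct4 and 3 for the change of the difference, and the added call was Sox12 each time (adjusted p 0.0230 at day 6, 0.0166 between the days in siOct4 and 0.0367 for the change). Over all genes, 148 were called at day 3 and 43 with no trend. With a library left out the counts ran from 3 to 375 at day 3, from 1398 to 4669 at day 6 (4251 as reported), from 2360 to 5954 and from 5397 to 7374 between the days, and from 1009 to 3667 for the change (2867 as reported). The share of called genes that were higher in siOct4 at day 6 was 39.5%, and 27.5% with totals without normalization factors. Between the days in siOct4 it was 42.1%, and 52.5% with totals without Gm26917, where the median change of all genes was 0.06 in place of -0.08. Count tests with edgeR and DESeq2 were planned and not run, and voom on the recovered reads was run in their place. A fit on only the groups compared gives no change of the difference. Depth limits Sox15 and Sox7 at day 3 and Sox17 throughout.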
